A study of Mus musculus with 36 samples.

Results

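The HoxD locus was described through the H3K27ac peaks that overlap a window of mouse chromosome 2, chr2:73600000-75700000 in build mm9. H3K27ac, acetylation of histone H3 at lysine 27, marks active enhancers and promoters, and a peak is a stretch where chromatin immunoprecipitation followed by sequencing (ChIP-seq) found it enriched. The window was divided into the HoxD cluster at chr2:74490000-74610000, a telomeric desert of 1090 kb above it and a centromeric desert of 890 kb below it. Of 732259 peaks in 18 libraries, 1840 overlapped the window. By their midpoints, 966 lay in the telomeric desert, 783 in the centromeric desert and 91 in the cluster. The members are the 6 genes Hoxd8, Hoxd9, Hoxd10, Hoxd11, Hoxd12 and Hoxd13.

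The tissue was forelimb of FVB mouse embryos at embryonic day 11.5, and each library came from forelimbs pooled over embryos. The knockout groups were mm1179 KO with 4 libraries and hs72 KO, hs1262 KO, hs1467 KO, hs1586 KO and hs1603 KO with 2 libraries each, and the WT group had 4 libraries. Each KO line lacks the limb enhancer it is named for, no group was treated, and all groups share strain, tissue and stage. The labels do not place these enhancers in the genome. The comparison of lines asks what loss of a single enhancer does to limb chromatin. In bulk tissue, fewer cells with the mark and less mark per cell cannot be told apart.

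Hoxd genes encode homeodomain transcription factors that pattern the limb along its length. Regulatory elements scattered through the telomeric desert are known for driving the early phase of transcription that builds the upper limb and forearm, and elements in the centromeric desert for the later phase that builds the digits. Hoxd13, at the centromeric end, is a digit gene. Hoxd12 lies next to it and is transcribed with it in the distal limb. Hoxd11 acts with its HoxA counterpart in the forearm, Hoxd10 and Hoxd9 act in more proximal limb, and Hoxd8 is mainly a trunk gene.

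In the RefSeq annotation at hand, which is of build GRCm38.p6 and so was used for gene order only, the genes ran from the centromeric side as Atf2, Atp5g3, Lnpk, Evx2, Hoxd13, Hoxd12, Hoxd11, Hoxd10, Hoxd9, Hoxd8, Hoxd3, Hoxd4, Hoxd1, Mtx2, Gm50595, Hnrnpa3 and Nfe2l2. Without gene positions in mm9, no peak was assigned to a single gene, and the intervals called deserts can hold neighbouring genes. All 6 members matched the RefSeq promoter table, with 7 promoters of 300 bases (250 before and 50 after the start). The promoters of the outermost members are shown because they lie at opposite ends of the row of 6 genes and differ widely in CpG content, with each CpG in capitals, 5′ to 3′ on the plus strand in GRCm38.p6.
Hoxd13: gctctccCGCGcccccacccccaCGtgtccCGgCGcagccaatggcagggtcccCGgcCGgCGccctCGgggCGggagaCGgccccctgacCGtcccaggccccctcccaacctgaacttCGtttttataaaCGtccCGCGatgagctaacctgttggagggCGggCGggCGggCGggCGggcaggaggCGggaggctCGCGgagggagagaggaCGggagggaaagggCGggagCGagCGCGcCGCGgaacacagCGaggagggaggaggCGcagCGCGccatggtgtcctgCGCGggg
Hoxd8: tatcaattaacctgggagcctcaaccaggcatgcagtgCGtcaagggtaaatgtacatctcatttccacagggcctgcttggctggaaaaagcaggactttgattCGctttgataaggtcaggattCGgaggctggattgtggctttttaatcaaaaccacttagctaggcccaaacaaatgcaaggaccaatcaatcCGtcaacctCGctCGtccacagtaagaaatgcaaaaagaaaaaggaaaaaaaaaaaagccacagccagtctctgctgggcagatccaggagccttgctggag
The Hoxd13 promoter at chr2:74667975-74668274 held 37 CpG with 74.3% G or C, and 94.4% of 32851 mouse promoters held fewer. The Hoxd8 promoter at chr2:74704365-74704664 held 6 CpG with 46.7% G or C, against a median over all promoters of 7 CpG and 52.7%. Hoxd12 had 13 CpG, Hoxd10 22 and Hoxd9 20, and the 2 start sites of Hoxd11 had 4 and 25. CpG content did not follow the order of the genes. Of the motifs searched on both strands, TATAAA stood in 1 of the 7 promoters (Hoxd13) and in 13.6% of all promoters. TTTATG stood in 1 of the 7, at a Hoxd11 start, and in 11.9% of all promoters. TAATTA, a core that many homeodomains bind, stood in 2 of the 7, both at Hoxd11 starts, and in 5.29% of all. A motif match is a description of the letters only.

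The names of the deposited lists carry a tag that the labels do not give, and it divided the libraries into 4 tag groups. Group 1 held replicates 1 and 2 of mm1179 KO and WT. Group 2 held replicates 3 and 4 of mm1179 KO and WT and both hs72 KO libraries. Group 3 held replicate 1 of hs1262 KO, hs1467 KO, hs1586 KO and hs1603 KO, and group 4 held replicate 2 of these lines. Groups 3 and 4 hold no WT library, so for those 4 lines tag group and genotype cannot be told apart against WT. Lists of group 3 were short, with 26550 to 32472 peaks, and those of group 4 long, with 54375 to 58753, against 30719 to 37929 in group 1 and 37846 to 45267 in group 2. The window held 77 to 92 peaks in group 3 libraries, 127 to 143 in group 4, 72 to 103 in group 1 and 94 to 116 in group 2. Read depth is unknown because the lists hold no read counts. A missing peak is therefore a call that was not made.

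In 14 of the 18 libraries, those of groups 1, 2 and 4, acetylation formed a nearly unbroken block. It ran from the centromeric end of the cluster interval, on the Hoxd13 side, to its middle, and then stopped. Whether Evx2, next to Hoxd13 in gene order, lies inside the interval was not determined. Peaks covered 51.4%, 45.1%, 49.6% and 52.8% of the cluster in mm1179 KO replicates 1 to 4. They covered 49.1% and 52.9% in the hs72 KO libraries. In replicate 2 they covered 56.0% in hs1262 KO, 56.1% in hs1467 KO, 59.5% in hs1586 KO and 53.6% in hs1603 KO. The 4 WT libraries had 46.7%, 49.3%, 47.1% and 48.4%. Over these 14 libraries the mean was 51.3 ± 4.11% (SD, n = 14), with the libraries of group 4 at the top.

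The centromeric 60 kb of the cluster, toward Hoxd13, was covered at 92.4 ± 4.68%, and the telomeric 60 kb, toward Hoxd1, at 10.1 ± 4.84% (SD, n = 14 each). The ranges, 82.5% to 98.9% and 5.38% to 23.5%, did not overlap. In bins of 10 kb counted from the centromeric end of the interval, the first bin had a median coverage of 86.0% and the second 97.2%. The next 2 bins were covered at 100% in every one of the 14 libraries, and the fifth had a median of 100% with a lowest value of 93.6%. The sixth bin, which held gaps between peaks of the block, had a median of 81.2%. The seventh had a median of 35.1% because the block ended inside it. The block ended 63.5 ± 0.288 kb from the start of the cluster interval (SD, n = 14), between 63.2 and 64.2 kb. This edge varied by about 1 kb among libraries whose lists differed in length.

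Beyond the edge, calls were sparse. The eighth bin held a peak in 1 of the 14 libraries, the ninth in 2 and the eleventh in 5, and the twelfth in 0. The tenth bin was the exception, with a peak in 11 of the 14 and a median coverage of 17.3%. That peak belonged to the consensus region chr2:74586559-74589089, where a consensus region is a stretch covered by peaks of at least 2 libraries. It was called in 4 of 4 libraries of group 1, 3 of 6 of group 2, 0 of 4 of group 3 and 4 of 4 of group 4. Its score percentile, the rank of the authors' score within a library's own list, averaged 47.5% over the libraries that called it.

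**Figure D1:**
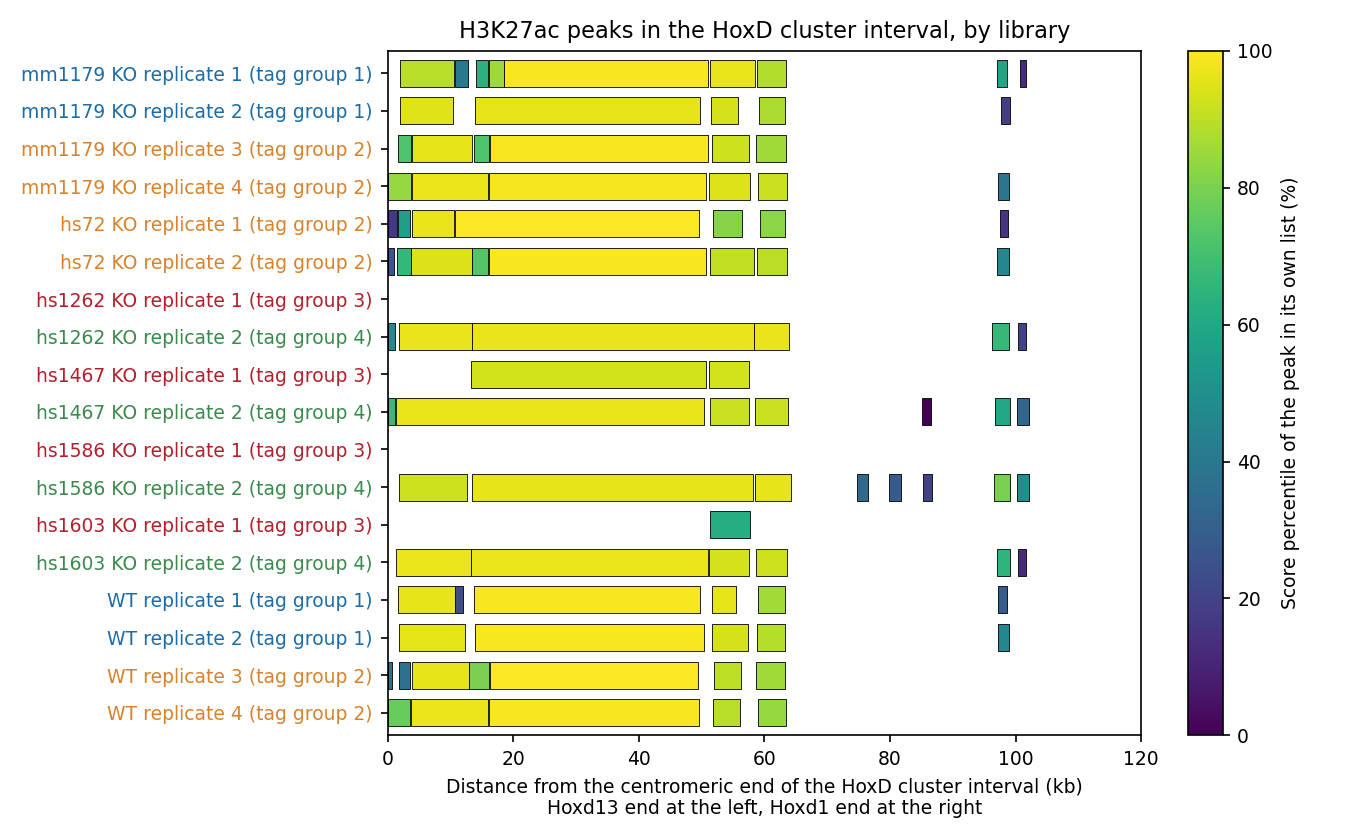
H3K27ac peaks in the HoxD cluster interval, 1 row per library, by distance in kb from its centromeric end (Hoxd13 side at the left) and coloured by the score percentile in the library's own list. In the 14 libraries of tag groups 1, 2 and 4 high-percentile peaks fill the left side up to 63.2 to 64.2 kb, and in group 3 all or most of this block is missing in 3 libraries and part of it in hs1467 KO replicate 1.

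In the 14 libraries of groups 1, 2 and 4 the block was made of several peaks, the widest of them among the widest of its list. The widest cluster peak spanned 37.6 ± 5.10 kb (SD, n = 14), from 32.5 to 49.1 kb, and ranked between 2 and 7 by width in its own list. Its score was 3100 in 13 of the 14 libraries. That value is shared by many peaks of these lists, by 0.941% to 1.56% of the peaks in group 1, 1.03% to 2.66% in group 2 and 5.59% to 6.37% in group 4, so percentiles near the top are tied. The exception was mm1179 KO replicate 2, with a score of 1423.03. Percentiles ran from 95.9% to 99.4%.

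Set against the genome cut into 21970 tiles of 120 kb, the cluster was covered as heavily as few others. Between 9 and 67 tiles, a median of 23.5, matched or passed it in the 14 libraries, which is 0.0410% to 0.305% of all tiles. In these 14 libraries the deserts stood lower in the same kind of ranking, each among tiles of its own length. Of 2408 tiles as long as the telomeric desert, 2.57% to 9.55% matched or passed it. Of 2954 tiles as long as the centromeric desert, 1.59% to 9.72% did. In group 3 the cluster was matched or passed by 0.574% to 100% of tiles. There the share was 2.12% to 3.82% for the telomeric desert and 1.93% to 2.95% for the centromeric desert.

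In tag group 3, 3 of the 4 libraries lacked all or most of the cluster block and the fourth lacked part of it. In replicate 1 of hs1262 KO and of hs1586 KO no cluster base was covered. In hs1603 KO replicate 1 a single peak of 6.32 kb, chr2:74541308-74547631, covered 5.27% of the cluster, with a score of 144.35 and a percentile of 61.9%. In hs1467 KO replicate 1 the peak chr2:74503338-74540720 spanned 37.4 kb, with a score of 685.23 and a percentile of 93.3%, and with a second peak it covered 36.5% of the cluster and 73.1% of its centromeric 60 kb. These 4 values lie below every one of the other 14, whose lowest was 45.1%. Replicate 2 of the same 4 lines covered 53.6% to 59.5% of the cluster.

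In covered bases the deserts did not share this gap, though single desert regions were missing too. Group 3 libraries covered 13.0 ± 0.814% of the telomeric desert and 14.9 ± 0.878% of the centromeric desert (SD, n = 4 each). Group 1 libraries, with the cluster block present, covered 8.69 ± 1.65% and 8.67 ± 1.93% of these deserts (SD, n = 4 each). Group 3 lists, though short in peaks, also covered more of the genome, at 89.6 to 93.6 Mb against 62.6 to 86.0 Mb in group 1. A score of 3100 was reached by 0.00377% to 0.182% of the peaks in group 3 lists, a smaller share than in any list of the other groups. Of the 45 window regions called in all 14 libraries of groups 1, 2 and 4, 6 (13.3%) were called in no group 3 library. Genome-wide the share was 23.5%, and the window's share was below it. Another 33 (73.3%) were called in all 4 group 3 libraries, and 6 in 1 to 3 of them. What part tag group, depth or genotype had in the missing cluster peaks was not tested.

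**Figure D2:**
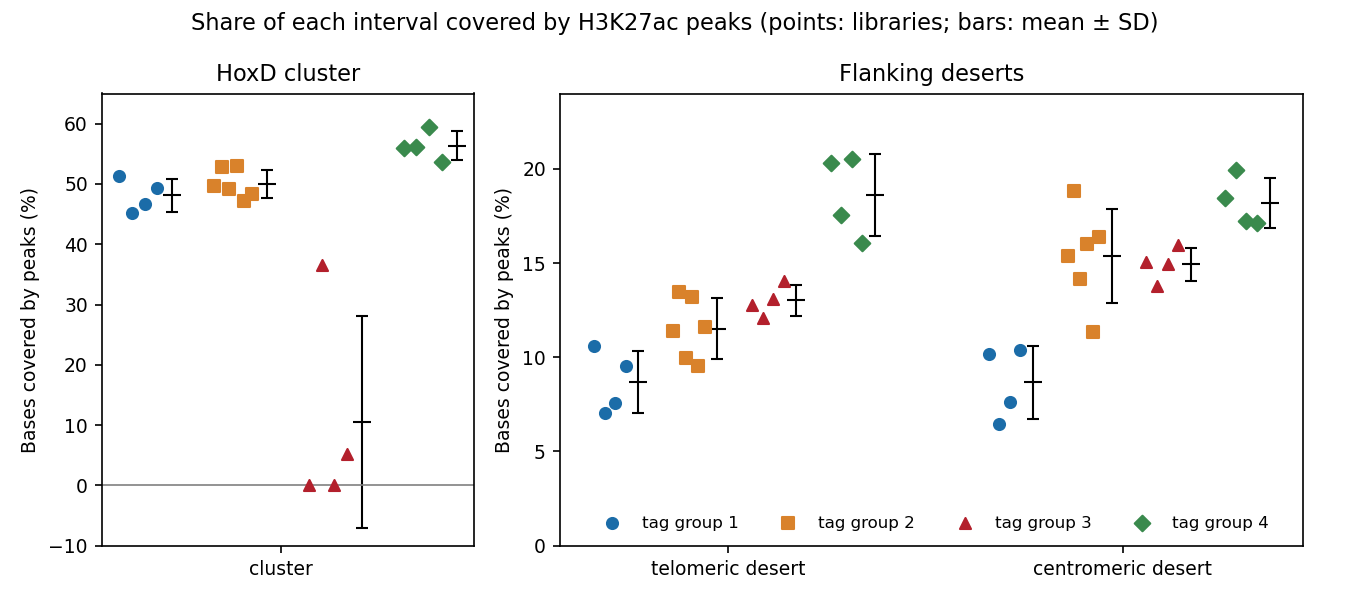
Percent of bases covered by H3K27ac peaks in the HoxD cluster (left) and in the telomeric and centromeric deserts (right), 1 point per library by tag group, with bars for the mean and SD (n = 4, 6, 4 and 4). In the cluster, group 3 sits at 0% to 36.5% and all other libraries at 45.1% to 59.5%, while in both deserts group 3 lies above all of group 1.

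The 6 regions missing from group 3 were strong in the other libraries. Their percentile there, averaged per region, had a median of 85.9%, against 72.6% for the 33 regions that group 3 also called. They were also narrower, with a median width of 3594 bp against 6112 bp. In the cluster the missing region was chr2:74548422-74553937, the last 5.52 kb of the block, with 89.8 ± 4.69% (SD, n = 14). In the telomeric desert they were chr2:75538041-75545457, with 96.9 ± 0.682%, and chr2:74662838-74665461, with 81.2 ± 7.34% (SD, n = 14 each). In the centromeric desert they were chr2:73729125-73733269 with 91.1 ± 4.30%, chr2:73747663-73750705 with 82.1 ± 6.50% and chr2:74415676-74418401 with 69.9 ± 7.57% (SD, n = 14 each). The region chr2:73729125-73733269 had the highest mean percentile of the centromeric desert. Other genes flank the cluster on both sides in gene order. Whether the missing desert regions are promoters of these genes was not determined, for lack of gene positions in mm9.

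Both deserts were acetylated at a similar overall level, with the centromeric desert somewhat ahead in covered bases and in score. Over all 18 libraries, peaks covered 12.8 ± 3.83% of the telomeric desert and 14.4 ± 3.80% of the centromeric desert (SD, n = 18 each). The difference within libraries was -1.61 ± 2.27 percentage points (SD, n = 18), with the telomeric desert higher in 4 of 18 (sign-flip permutation test, two-sided, p = 0.0083, adjusted over the 3 desert measures 0.0124). The tag groups did not share it. In group 2 the difference was -3.84 points, with the telomeric desert higher in 0 of 6 libraries (exact p = 0.0312, the smallest possible). In group 3 it was -1.92 points and 0 of 4 (exact p = 0.125, the smallest possible). In group 1 it was 0.0224 points and in group 4 it was 0.424 points, with 2 of 4 higher in each, so the pooled direction did not hold within these groups. Without group 3 the pooled difference was -1.52 points with an adjusted permutation p of 0.0742.

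Peak number did not differ beyond the spread between libraries. The telomeric desert held 49.2 ± 12.2 peaks per Mb and the centromeric desert 48.9 ± 9.29 (SD, n = 18 each). The difference was 0.359 ± 8.12 peaks per Mb (SD, n = 18), with the telomeric desert higher in 10 of 18 (permutation p = 0.856, adjusted 0.856). This pooled value hides opposite directions. In group 2 the difference was -7.48 peaks per Mb, with the telomeric desert higher in 0 of 6 (exact p = 0.0312). In group 4 it was 10.8 peaks per Mb, higher in 4 of 4 (exact p = 0.125, the smallest possible). In group 1 it was 1.04 and in group 3 it was 0.961 peaks per Mb, higher in 3 of 4 libraries of each. The pooled direction turned with several alternatives: with only the 26550 highest-scoring peaks of each list it was -3.61 peaks per Mb (permutation p = 0.00522, adjusted 0.00783).

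Peaks of the telomeric desert ranked lower in score. Their median percentile was 43.1 ± 5.55%, against 50.9 ± 4.12% in the centromeric desert (SD, n = 18 each). The difference was -7.77 ± 5.96 points (SD, n = 18), with the telomeric desert higher in 2 of 18 libraries (permutation p = 4.0e-05, adjusted 0.00012). The difference had the same sign in each tag group, at -3.43 points in group 1, -7.09 in group 2, -7.28 in group 3 and -13.6 in group 4. Within groups 1, 2, 3 and 4 the exact sign-flip p was 0.125, 0.0625, 0.25 and 0.125, and 4 libraries cannot go below 0.125. The pooled test treated the 18 libraries as independent and took no account of tag group. Group 4, with the longest lists, had the largest difference. With lists of equal length the difference was -4.62 points (permutation, adjusted p = 0.0757), and with a minimum score of 100 it was -2.82 points (adjusted p = 0.377), and the call was lost in both. Leaving out 150 kb at both ends of each desert gave -4.12 points (permutation, adjusted p = 0.0734), and a mean weighted by bases gave -3.19 points (adjusted 0.0286).

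**Figure D3:**
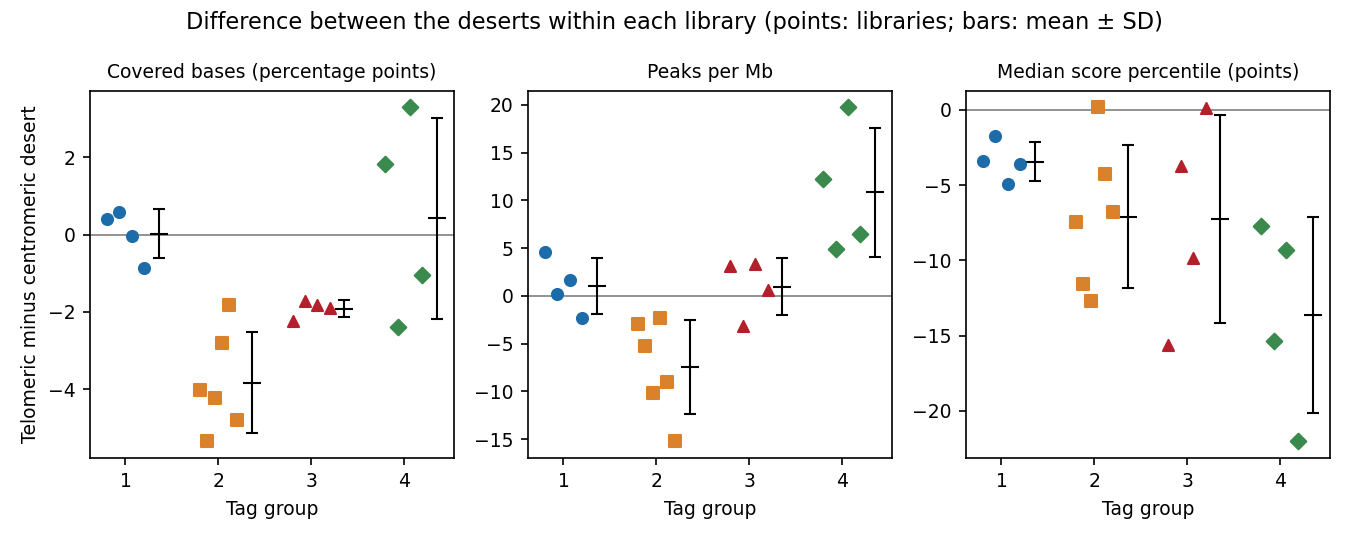
Telomeric minus centromeric desert within each library, for covered bases in percentage points (left), peaks per Mb (middle) and median score percentile in points (right), with bars for the mean and SD in each tag group (n = 4, 6, 4 and 4). Covered bases lie below 0 in all libraries of groups 2 and 3 only, peak number is below 0 in all of group 2 and above it in all of group 4, and the percentile is below 0 in 16 of 18 libraries.

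The deserts differed in where the acetylation lay. In the telomeric desert, the 545 kb far from the cluster were covered at 19.95 ± 5.21% and the 545 kb next to it at 5.65 ± 2.54% (SD, n = 18 each), and the far side was higher in 18 of 18 libraries. In the centromeric desert, the far 445 kb had 13.7 ± 3.90% and the near 445 kb 15.1 ± 3.83% (SD, n = 18 each), with the far side higher in 1 of 18. Within the telomeric desert the first 100 kb had a median coverage of 2.66% and the stretch from 300 to 400 kb had 1.53%. Coverage was highest from 600 to 700 kb, at a median of 29.5%, and was 17.9% to 23.8% up to 1000 kb. The first 100 kb of the centromeric desert had a median of 9.82%, and its most covered stretch was 400 to 500 kb away, at 31.6%. These profiles were computed after the window's values were known and carry no test.

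**Figure D4:**
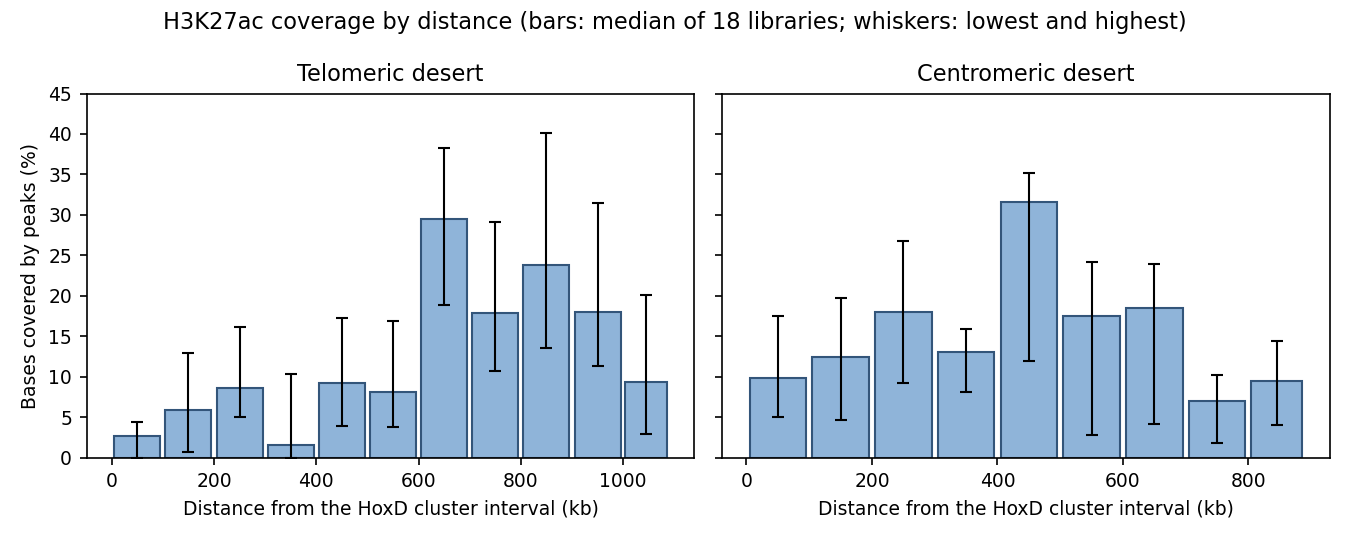
Percent of bases covered by H3K27ac peaks in steps of 100 kb (the outermost step is 90 kb) by distance in kb from the HoxD cluster, in the telomeric (left) and centromeric (right) desert, with bars for the median and whiskers for the lowest and highest of 18 libraries. Telomeric coverage stays at medians of 1.53% to 9.28% up to 600 kb and reaches 29.5% from 600 to 700 kb, and centromeric coverage is highest at 31.6% from 400 to 500 kb.

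In the telomeric desert the strongest regions lay on the far side. In gene order Mtx2, Gm50595, Hnrnpa3 and Nfe2l2 follow beyond Hoxd1. Whether these regions are promoters of such genes or distal elements was not determined, for lack of gene positions in mm9. The 5 telomeric regions with the highest mean percentile lay 649 to 928 kb from the cluster. Averaged over the libraries that called each, chr2:75538041-75545457, missing from group 3, had 96.9% and chr2:75492705-75501034 had 96.2 ± 5.87% (SD, n = 17). Over the same 14 libraries of groups 1, 2 and 4 the order turned, with 96.9% for chr2:75538041-75545457 and 98.4% for chr2:75492705-75501034, which 3 of the 4 group 3 libraries also called. All 18 libraries called the other three, chr2:75258900-75265052 with 92.3 ± 4.15%, chr2:75348616-75356429 with 91.5 ± 4.06% and chr2:75327861-75335986 with 89.9 ± 5.35% (SD, n = 18 each). The widest, chr2:75185318-75194096, spanned 8.78 kb and had 83.6 ± 9.03% (SD, n = 18).

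In the centromeric desert the top region, chr2:73729125-73733269, lay 757 kb from the cluster and was one missing from group 3. The next 4 were called in all 18 libraries. They were chr2:74024614-74031000 with 89.2 ± 5.25%, chr2:74454034-74460728 with 85.7 ± 11.0%, chr2:73908486-73916758 with 85.4 ± 8.61% and chr2:74102271-74113532 with 84.8 ± 10.1% (SD, n = 18 each). The second of these lay 29.3 kb from the cluster, closer than any top telomeric region. The last was the widest desert region, at 11.3 kb. Atf2, Atp5g3, Lnpk and Evx2 precede Hoxd13 in gene order, and whether any of these 5 regions is a promoter of such a gene was not determined.

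Regions shared by all libraries made up a similar or larger part of the deserts than of the genome. All 18 libraries called 18 of 93 telomeric regions (19.4%) and 15 of 59 centromeric regions (25.4%), against 16.5% of 63594 regions genome-wide. Of the 5 cluster regions 0 were called in all 18. Of the same 5, 2 were called in all 14 libraries outside group 3. The shared regions had a median percentile of 71.9% in the telomeric and 78.1% in the centromeric desert, and the others 21.7% and 25.1%.

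Between mm1179 KO and WT forelimbs the locus did not differ beyond the spread between libraries. That spread includes the one between tag groups 1 and 2, which the tests did not separate. Peaks covered 49.7 ± 3.35% of the cluster in mm1179 KO and 47.9 ± 1.19% in WT (SD, n = 4 each), a difference of 1.85 points (exact permutation p = 0.314). They covered 10.6 ± 2.67% of the telomeric desert in mm1179 KO and 9.57 ± 1.64% in WT, a difference of 1.06 points (SD, n = 4 each, exact permutation p = 0.514). In the centromeric desert the values were 12.7 ± 5.47% in mm1179 KO and 11.4 ± 3.66% in WT, a difference of 1.29 points (SD, n = 4 each, exact permutation p = 0.743). The window held 96.25 ± 18.5 peaks in mm1179 KO and 95.5 ± 15.4 in WT (SD, n = 4 each, exact permutation p = 1). Adjusted over these 4 two-sided tests, p was 0.990, 0.990, 0.990 and 1, and the smallest p that 4 against 4 can give is 0.0286.

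The range of the mm1179 KO cluster values, 45.1% to 52.8%, spans that of WT, 46.7% to 49.3%. Within group 1 the differences were 0.233 points in the cluster, 0.256 in the telomeric desert, -0.676 in the centromeric desert and 4.5 peaks. Within group 2 they were 3.47, 1.87 and 3.25 points and -3 peaks. The centromeric share and the peak number thus had opposite signs in the 2 tag groups. Telomeric minus centromeric coverage was -2.10 ± 3.03 points in mm1179 KO and -1.87 ± 2.08 in WT (SD, n = 4 each, exact permutation p = 0.943). A design of this size does not show that the groups are alike.

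Of the 157 regions of the window, 140 were called in at least 1 mm1179 KO or WT library. Of these, 0 were called in all 4 mm1179 KO and no WT library, against 0.0348% of 54583 such regions genome-wide, and 0 in all 4 WT and no mm1179 KO library, against 0.0769%. At these shares fewer than 1 region of 140 would be expected, so the zeros match the background and say nothing particular about the locus. All 8 libraries called 45 of the window's regions. Fisher's exact test cannot go below p = 0.0286 with 4 libraries against 4. Genome-wide 61 regions had that p and 0 of them lay in the window, and with so few among 54583 no region could pass Benjamini-Hochberg adjustment.

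Tiles missing from 1 line only could be sought in the deserts but not in the cluster. Since 2 libraries of group 3 covered no cluster base, 0 cluster tiles were called in every library outside any line, and the search there was void. In tiles of 500 bp, 0 of 185 window tiles called in every other library were missing from mm1179 KO, against 0.0179% genome-wide. The count was 0 of 150 for hs72 KO against 0.0892%, 0 of 150 for hs1262 KO against 0%, and 0 of 152 for hs1467 KO against 0.0107%. It was 0 of 150 for hs1586 KO against 0.00845% and 0 of 163 for hs1603 KO against 0.0133%. For these genome-wide shares the window is too small to expect a missing tile, so the zeros in the deserts set no line apart. In hs72 KO the cluster was covered at 49.1% and 52.9%, beside 47.1% and 48.4% in the 2 WT libraries of the same tag group, and no test was run on 2 libraries.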

How the data were processed

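H3K27ac ChIP-seq peak lists of 18 libraries were used, and 18 input libraries were not analysed here. Per the submitters' processing notes, the build was mm9 and the tools included MACS 1.4.2, Bowtie 0.12.8, cutadapt 1.1, bcl2fastq 2.17 and CASAVA. Whether peaks were called against the inputs is not given in the sources used here. The deposited lists hold positions and a score for every peak. The authors' scores ran from 40 to 3233.06 and were used only to rank or filter peaks within a list, as percentiles. The lists give no depth, so no counting interval was computed. Libraries of pooled tissue were the unit, and p-values measure only the spread between libraries, which may be technical.

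A peak was placed by its midpoint. Consensus regions needed peaks of at least 2 libraries, a region was called with at least 1 bp of overlap, and a tile of 500 bp with at least 250 bp covered. Deserts were compared within libraries by two-sided sign-flip permutation (100000 resamples, all arrangements where fewer), and mm1179 KO with WT by exact permutation of 70 arrangements, with Benjamini-Hochberg adjustment. Named regions were all in the cluster and, per desert, the 5 with the highest mean percentile, the widest, those called in all libraries (given as counts) and those missing from a group. The regions missing from tag group 3, the 10 kb and 100 kb profiles and the near and far sides were chosen after seeing the values. The members and lists were chosen with earlier results of these data known. Replicate numbers were not taken to pair mm1179 KO with WT, since same-numbered libraries correlated at 0.0139 to 0.0953. Pairs of an mm1179 KO and a WT library in the same tag group all correlated positively, over the same range. Pairs from different tag groups all correlated negatively, at -0.0950 to -0.0195. For each mm1179 KO library the positive and negative values with the WT libraries nearly cancelled. Their signs and sizes therefore do not measure how alike the libraries were as a whole. The 70 arrangements did not keep the tag groups apart. Alternatives were a minimum score of 100, equal lists, inner deserts (150 kb left out at both ends), other overlap rules, leaving out tag group 3 and each replicate, and the replicate block. Procedures were tested on simulated data. Peak coordinates are 1-based in mm9. Computations used matplotlib 3.10.9, scipy 1.17.1, pandas 2.3.3, numpy 2.4.6 and Python 3.11.15.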

Additional observations from a re-analysis of the deposited data

Results flagged for a closer look

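The difference in peak number between the deserts ran in opposite directions in 2 tag groups. Telomeric minus centromeric peak number was 10.8 peaks per Mb in group 4 (4.88 to 19.8) and -7.48 peaks per Mb in group 2 (-15.2 to -2.35), so all 4 libraries of the one moved opposite to all 6 of the other. The difference between these groups was not tested. They share no line. Group 4 holds hs1262 KO, hs1467 KO, hs1586 KO and hs1603 KO, and group 2 holds mm1179 KO, hs72 KO and WT. Between these 2 groups, tag group and genotype cannot be told apart. The lines of group 4 averaged 0.961 peaks per Mb in group 3. In group 1, which holds mm1179 KO and WT, the average was 1.04 peaks per Mb. What part tag group or genotype had in these values was not tested. Of 26 checks for a single outlying library, 0 were positive. This does not show that no library stood apart, since cluster coverage in group 3 ran from 0% to 36.5%.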

How the results depend on the processing

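Of 124 alternative values of the 7 tested results, 106 kept direction and side of the threshold. Of 34 alternatives of 5 counts of regions, 25 stayed within 1.5 times. Most of these 25 were counts of 0 that stayed 0, for which this rule cannot show stability. The counts above 0 were the 18 telomeric and 15 centromeric regions called in all libraries. They moved to 9 and 8 with a minimum score of 100 and to 8 and 4 with a stricter overlap rule. They stayed within 1.5 times at 24 and 19 without tag group 3 and at 14 and 13 with equal lists. Telomeric minus centromeric peak number turned negative with a minimum score of 100 (-3.47 peaks per Mb), with equal lists (-3.61) and with inner deserts (-3.62). Leaving out replicates it ran from -2.95 to 1.68, and it was negative without replicate 2 of all groups (-2.95) and without hs1262 KO (-0.338), hs1586 KO (-0.782) or hs1603 KO (-0.00243) replicate 2. The score percentile difference missed the threshold at -2.82, -4.62 and -4.12 points under the same 3 settings, was -3.19 points (adjusted permutation p = 0.0286) as a mean weighted by bases, and ran from -8.24 to -6.93 points when replicates were left out. The covered share difference missed it without tag group 3 (-1.52 points), and ran from -2.50 to -1.17 points with replicates left out, missing it without replicate 1 (-1.58, adjusted permutation p = 0.129) and without replicate 4 (-1.17, 0.0536) of all groups. With a stricter score, equal lists or inner deserts it stayed past the threshold at -2.10, -2.13 and -2.48 points.

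For mm1179 KO minus WT, leaving out 1 library gave -0.752 to 3.37 points in the centromeric desert (negative without mm1179 KO replicate 4), 0.817 to 3.39 in the cluster, 0.107 to 2.25 in the telomeric desert and -5.83 to 8.83 peaks. The peak difference was negative without mm1179 KO replicate 1 (-1.5) or 4 (-5.83) and without WT replicate 1 (-4.75) or 2 (-2.08). Regions found only in mm1179 KO then numbered 0 to 1, and only in WT 0 to 2. The replicate block left these differences at 1.85, 1.06 and 1.29 points and 0.75 peaks and changed no call; 2 of 4 mm1179 KO and 1 of 4 WT libraries correlated best with their own number. Regions called in all libraries numbered 2 in the cluster without tag group 3. With 50% of the region covered they numbered 8 in the telomeric and 4 in the centromeric desert, and with a minimum score of 100 they numbered 9 and 8. The causes of these changes were not tested. Unknown depth limits all absent calls.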
